A study of Homo sapiens with 8 samples.

Results

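Transcripts of 31 genes of cholesterol and fatty acid synthesis were followed after knock-down of the small GTPase RND3 (RhoE) in U87, a cell line from a human glioblastoma. The set was given as a list of gene symbols. It holds 7 enzymes of the mevalonate and isoprenoid steps, 3 of the squalene and lanosterol steps, 8 of the late sterol steps, 6 proteins that sense sterol or control the SREBP transcription factors, and 7 enzymes of fatty acid synthesis. Probes were matched to the symbols through RefSeq accessions, and all 31 genes were found among the 19483 gene symbols on the array, on 37 of 42405 probes. One probe stands for each gene, that with the highest mean signal at 24 h, and the other probes of the 5 genes with more than 1 probe (ACACA, HSD17B7, INSIG2, LSS and SREBF1) are given where they changed a call or a direction.

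All cells were U87 cells transfected with siRNA by the same lipid reagent, and the groups differed in the siRNA and in the time of collection. The siControl cells received non-silencing siRNA and the siRND3 cells siRNA against RND3. At 24 h there were 3 arrays of each, and at 48 h there was 1 array of each. The labels do not say whether the replicates at 24 h came from separate transfections, so the p-values measure the spread between these arrays, which may be technical. The methods name a pair of RND3 siRNAs without saying which array received which, and all results come from 1 cell line. Values are log2 of the background-corrected spot signal after quantile normalisation over the 8 arrays, and a difference is siRND3 minus siControl on that scale.

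Cholesterol is built from acetyl-CoA through mevalonate, the isoprenoid farnesyl diphosphate, squalene and lanosterol, and then through a series of demethylations, reductions and isomerisations. When sterol in the endoplasmic reticulum is low, SCAP carries the SREBP precursors (encoded by SREBF1 and SREBF2) to the Golgi, where they are cleaved into transcription factors that raise most genes of the pathway. INSIG1 and INSIG2 hold SCAP back when sterol is plentiful, and INSIG1 is itself an SREBP target. The pathway also supplies the farnesyl group that anchors RND3 and other small GTPases to membranes, and glioblastoma cells are known for a high demand for sterol and fatty acid.

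The knock-down was seen on all siRND3 arrays. RND3 was 11.88, 11.91 and 11.90 in siControl cells and 10.13, 10.18 and 10.41 in siRND3 cells at 24 h. It fell by 1.66 (SE 0.09, limma adjusted p = 0.000339), and at 48 h it was 11.48 and 9.83. On each array 68.3% to 70.7% of probes were well above background, and at 24 h the correlation between arrays was 0.991 to 0.995 within groups against 0.987 to 0.989 between them. All 8 arrays lay on 1 slide with the siRND3 arrays in row 1 and the siControl arrays in row 2, so treatment cannot be told apart from row. As for cell identity, 5 markers taken for U87 cells (VIM, NES, CD44, CAV1 and FN1) were well above background on all 8 arrays, and at 24 h CD44 fell by 0.56 and NES rose by 0.41 in siRND3 cells (limma adjusted p = 0.00855 and 0.0448). Of 17 markers of other cell types, CDH1, ALB and RBFOX3 were not well above background on any array. The other 14 were well above background too, PECAM1 on 7 arrays and the rest on all 8. The neuronal marker SNAP25 was 10.81, 10.86 and 10.88 in siControl cells at 24 h, where FN1 was 10.28, 10.36 and 10.09. Detection alone thus did not set the U87 markers apart from those of other cell types. Of the 14 tested, 3 fell at 24 h, PECAM1 by 0.99, SYT1 by 0.49 and SNAP25 by 0.42. The mean log2 value over the 17 was 5.45 to 5.64 on the siControl arrays and 5.47 to 5.51 on the siRND3 arrays at 24 h, and its part in the results was not tested. In bulk RNA, fewer cells and less RNA per cell cannot be told apart.

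At 24 h INSIG1, INSIG2 and MSMO1 were down-regulated, 3 of the 31 members, where 8.31% of the 14797 genes tested were called lower (limma, Benjamini-Hochberg adjusted p under 0.05 over all probes tested). No member was called higher, where 6.71% of all genes were, and SAM, the test named in the methods, also called no member higher and called 2 lower. At an unadjusted p under 0.05 there were 8 members, 5 lower (with TM7SF2 and FADS2) and 3 higher (MVK, PMVK and LSS), where 14.6% and 18.5% of all genes were. The median difference of the members was -0.09 against 0.04 for all genes tested, and 22 of 31 were below 0, where 42.7% of all genes were. The 3 siRND3 arrays all lay below the 3 siControl arrays for 10 members, where 17.5% of all genes did so, and all above them for 5 members, where 24.1% did so. All 31 members were well above background on all 8 arrays. For 27 of the 28 members that did not pass, the 95% interval of the difference lay within 1.5-fold either way, the exception being HSD17B7.

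**Figure D1:**
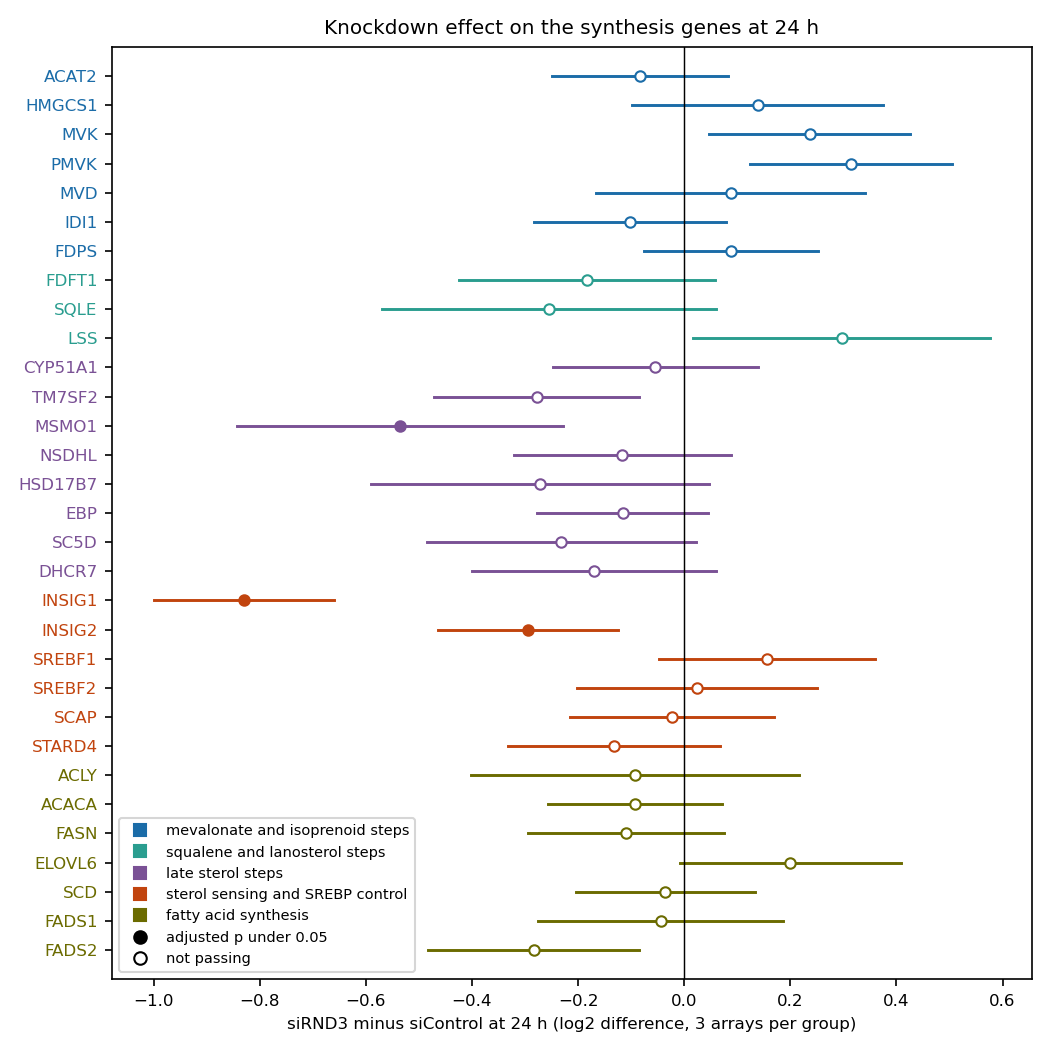
Difference between siRND3 and siControl cells at 24 h for each of the 31 genes on the log2 scale (x axis), as the mean of 3 arrays against 3 with its 95% interval from limma, coloured by role; filled points pass an adjusted p of 0.05. INSIG1 at -0.83 stands apart on the left, MSMO1 and INSIG2 also pass, and all 8 late sterol enzymes lie left of 0.

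The mevalonate and isoprenoid steps did not pass at 24 h, with a median of 0.09 over 7 genes, 5 of them above 0. ACAT2 condenses a pair of acetyl-CoA molecules and HMGCS1 adds the next, and their differences were -0.08 and 0.14. MVK, which phosphorylates mevalonate, was 12.82, 12.74 and 12.85 in siControl cells and 12.96, 13.13 and 13.04 in siRND3 cells, a difference of 0.24 (SE 0.08, limma adjusted p = 0.108). PMVK, the next kinase, was 12.37, 12.46 and 12.34 in siControl cells and 12.63, 12.80 and 12.67 in siRND3 cells. For both kinases every siRND3 array was above every siControl array. The PMVK difference of 0.31 (SE 0.08, 95% interval 0.12 to 0.51) missed the threshold in limma (adjusted p = 0.0524), and it passed under 5 of 17 alternatives, with adjusted p from 0.0122 to 0.179 over all of them. MVD, which forms isopentenyl diphosphate, and IDI1, which isomerises it, differed by 0.09 and -0.10. FDPS, which makes farnesyl diphosphate, differed by 0.09 (95% interval -0.08 to 0.25). Probes for FDPS, IDI1, CYP51A1, HSD17B7 and SCD may also bind transcripts of the pseudogenes that these genes have.

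None of the 3 squalene and lanosterol genes passed at 24 h on the probe that stands for the gene, and 1 (LSS) had an unadjusted p under 0.05. FDFT1, which joins farnesyl units into squalene, differed by -0.18 (95% interval -0.42 to 0.06). SQLE, the epoxidase that follows, was 11.62, 11.55 and 11.64 in siControl cells and 11.51, 11.06 and 11.48 in siRND3 cells, a difference of -0.26 (adjusted p = 0.260). Its siRND3 arrays were all the lower ones, with replicate 2 furthest down. LSS, which closes the ring to give lanosterol, has probes for a pair of RefSeq transcripts. On probe A_24_P110799 it was 12.12, 11.87 and 12.04 in siControl cells and 12.15, 12.49 and 12.27 in siRND3 cells, higher by 0.30 (limma adjusted p = 0.158). On the dimmer probe A_23_P211252 it was 6.73, 6.68 and 6.86 against 7.23, 7.21 and 7.22, where it rose by 0.46 (SE 0.08, limma adjusted p = 0.0139). On both probes the siRND3 arrays lay above the siControl arrays. The call on the second probe was lost when siControl replicate 1 was left out (0.45, adjusted p = 0.0613), likewise for siControl replicate 2 (0.42, adjusted p = 0.0558), and with the replicate number as a block (adjusted p = 0.0556).

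The late sterol steps, from lanosterol to cholesterol, had all 8 differences below 0 at 24 h, with a median of -0.20, and 1 of the 8 passed. MSMO1, the methyl sterol oxidase that removes the C4 methyl groups, was 8.06, 7.66 and 7.98 in siControl cells and 7.22, 7.45 and 7.42 in siRND3 cells. The siRND3 arrays were all lower, and siControl replicate 2 was the nearest to them. MSMO1 thus fell by 0.54 and kept 69.0% of its siControl signal (SE 0.13, limma adjusted p = 0.0445). The call was lost under 8 of 17 alternatives, among them the removal of any array at 24 h other than siControl replicate 2 (-0.58 to -0.46, adjusted p 0.0842 to 0.141), and the difference shrank to -0.31 under the normexp background correction (adjusted p = 0.146). TM7SF2, a sterol reductase, was 7.32, 7.35 and 7.48 against 7.08, 7.19 and 7.05, with no overlap, and its difference of -0.28 missed the threshold (adjusted p = 0.0752). NSDHL and HSD17B7, which act with MSMO1 in C4 demethylation, differed by -0.12 and -0.27, and the HSD17B7 interval ran from -0.59 to 0.05. The 3 HSD17B7 probes gave -0.27, -0.38 and -0.29, of which none passed. The second, A_23_P11859, came nearest (limma adjusted p = 0.0519), at 8.24, 7.98 and 8.21 against 7.68, 7.75 and 7.84, with no overlap. CYP51A1, the lanosterol demethylase, differed by -0.05, EBP, the sterol isomerase, by -0.12, SC5D, a desaturase, by -0.23, and DHCR7, the last reductase, by -0.17. On the probe that stands for the gene, the arrays of both groups overlapped for CYP51A1, NSDHL, HSD17B7, SC5D and DHCR7.

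Among the genes that sense sterol, both INSIG genes fell. INSIG1 was 12.30, 12.23 and 12.35 in siControl cells and 11.50, 11.43 and 11.45 in siRND3 cells at 24 h. The gap between the groups was several times the spread within either. INSIG1 fell by 0.83 and kept 56.3% of its siControl signal (SE 0.07, limma adjusted p = 0.00120), and it passed under all 17 alternatives with differences of -0.91 to -0.78. INSIG2, the second anchor of SCAP, has a pair of probes annotated to the same RefSeq transcript, and they differed in size. On probe A_33_P3321342 it was 8.69, 8.76 and 8.71 in siControl cells and 8.36, 8.43 and 8.48 in siRND3 cells, and it fell by 0.29 (SE 0.07, limma adjusted p = 0.0451). On probe A_24_P944458 it was 8.19, 8.27 and 8.39 in siControl cells and 6.56, 6.50 and 6.62 in siRND3 cells. There it fell by 1.72 (SE 0.08, limma adjusted p = 0.000208), a 3.31-fold decrease. Neither probe showed overlap between the groups. The second probe passed under every alternative that gave it an adjusted p, at -1.86 to -1.26. SAM gives no adjusted p, and its call on this probe was not recorded. The first lost its call in SAM, without the filter on dim probes, with the replicate block and without each of the 6 arrays at 24 h in turn, where it stayed between -0.32 and -0.26 (adjusted p 0.0639 to 0.148). Which transcripts each probe binds was not tested.

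The other sensing genes did not pass at 24 h. SREBF1 differed by 0.16 and SREBF2 by 0.02, and SCAP, the escort of both precursors, by -0.02 (95% interval -0.22 to 0.17). STARD4, a sterol carrier, was 8.29, 8.29 and 8.36 against 8.24, 8.05 and 8.24, lower on all siRND3 arrays, with a difference of -0.13 (adjusted p = 0.350). The direction for SCAP turned under scaling to the 75th percentile, where it was 0.0065.

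**Figure D2:**
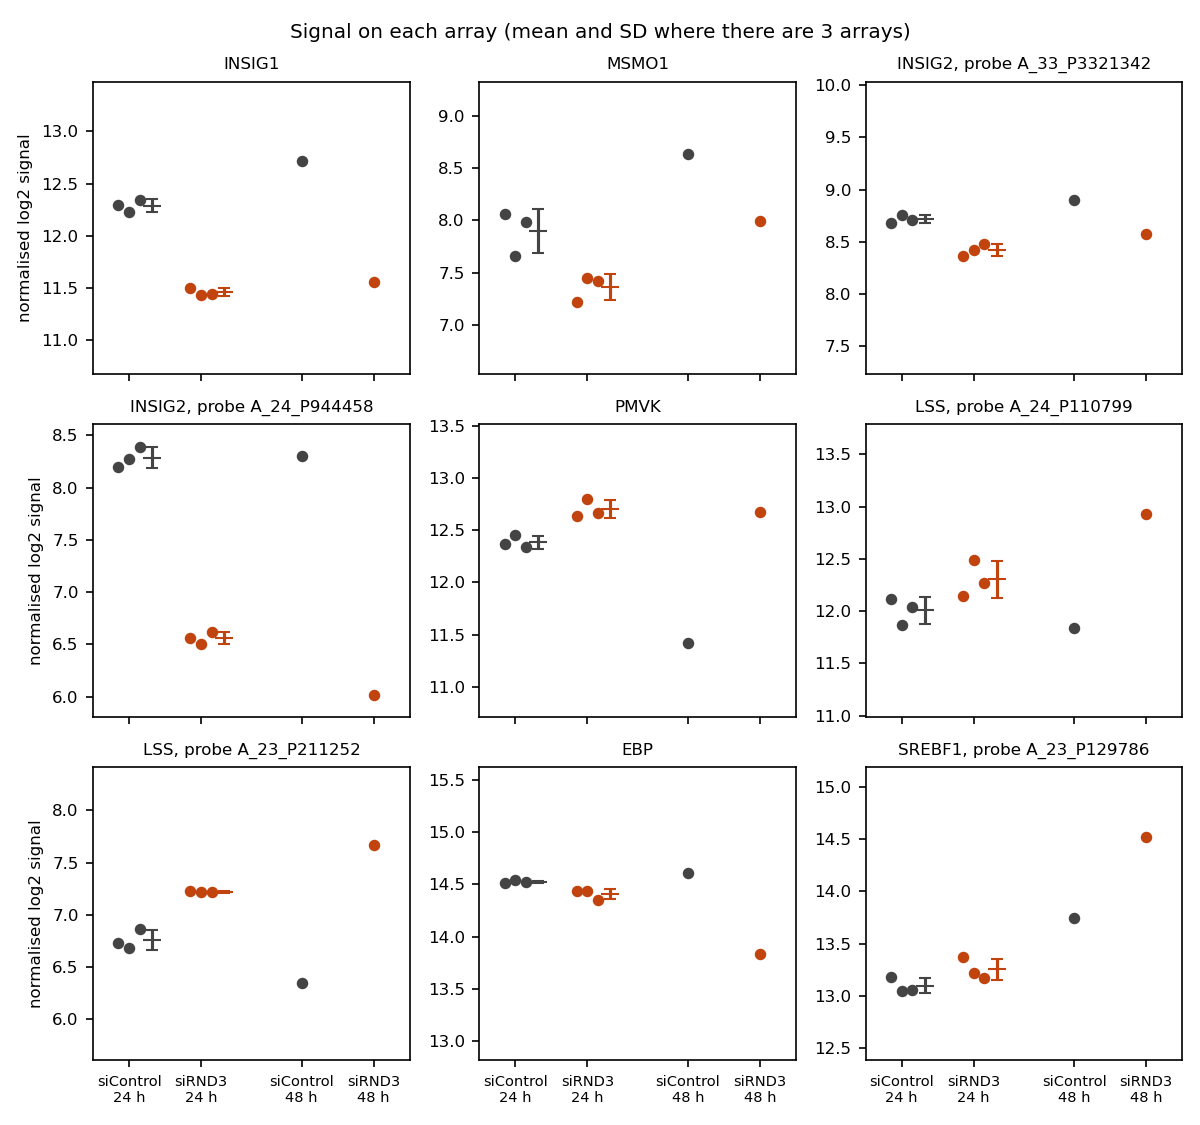
Normalised log2 signal on each of the 8 arrays for 9 probes of INSIG1, MSMO1, INSIG2, PMVK, LSS, EBP and SREBF1, in siControl (grey) and siRND3 (orange) cells at 24 h and 48 h, with mean and SD beside the groups of 3 and every panel drawn over the same span of log2 units. INSIG1 and both INSIG2 probes are lower in siRND3 cells at both times, and the PMVK gap at 48 h lies mostly in the siControl array, at 11.43 against 12.34 to 12.46 at 24 h.

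Promoter sequence is shown for the INSIG1 and MSMO1 genes, the pair with the lowest adjusted p at 24 h on the probe that stands for the gene. RefSeq windows of GRCh38.p14, 250 bases before to 50 after the start of transcription, were found for 27 of the 31 members. The sterol regulatory element core was searched on both strands as TCACCCCAC, and with 1 base free as TCACNCCAC, which includes the first. Each form was held by 1 of the 27 genes, SREBF2 (3.7%), against 0.535% and 1.39% of all 27305 genes with a window. CCAAT, which is bound by NF-Y, the factor that works beside SREBP at sterol promoters, was in 20 of 27 (74.1% against 39.7%). The E-box CACGTG was in 4 of 27 (14.8% against 8.77%) and the GC box GGGCGG in 26 of 27 (96.3% against 48.3%). These are matches of letters and were not tested as sites. The genes compared were all those with a window, whether or not they were detected in these cells, while every member was detected. The shares among other detected genes were not examined. In both windows below, on the plus strand and read 5′ to 3′, capitals mark CCAAT on either strand (ATTGG where it lies on the minus strand), 1 box for INSIG1 at chr7:155297628-155297927 and 4 boxes for MSMO1 at chr4:165327419-165327718. The INSIG1 window also holds 1 E-box, 55 bases before the start.
INSIG1: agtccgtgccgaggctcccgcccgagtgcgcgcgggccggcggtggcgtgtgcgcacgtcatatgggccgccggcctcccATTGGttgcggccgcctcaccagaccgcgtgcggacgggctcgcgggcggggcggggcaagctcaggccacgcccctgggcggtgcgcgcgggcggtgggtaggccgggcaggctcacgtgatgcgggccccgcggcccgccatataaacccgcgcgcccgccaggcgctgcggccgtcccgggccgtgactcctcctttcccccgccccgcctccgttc
MSMO1: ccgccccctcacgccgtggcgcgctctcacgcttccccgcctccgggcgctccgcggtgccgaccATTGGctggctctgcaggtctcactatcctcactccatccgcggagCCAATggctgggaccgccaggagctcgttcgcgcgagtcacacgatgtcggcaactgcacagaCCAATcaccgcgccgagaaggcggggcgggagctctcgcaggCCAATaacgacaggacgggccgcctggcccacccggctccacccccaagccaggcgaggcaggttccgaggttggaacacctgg

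None of the 7 genes of fatty acid synthesis passed in limma at 24 h, 1 (FADS2) had an unadjusted p under 0.05, and the median was -0.09. FADS2, the delta-6 desaturase, was 10.77, 10.92 and 10.83 in siControl cells and 10.66, 10.48 and 10.54 in siRND3 cells. All siRND3 arrays were lower, by 0.28 on average (SE 0.08, limma adjusted p = 0.0772), and the gene passed under 2 of 17 alternatives. FADS1, the delta-5 desaturase encoded beside it, differed by -0.04 (95% interval -0.28 to 0.19). ACLY, which makes cytosolic acetyl-CoA, and ACACA, which carboxylates it, both differed by -0.09. FASN, the synthase, differed by -0.11, and SCD, the delta-9 desaturase, by -0.04. ELOVL6, which lengthens palmitate, was the only one of the 7 above 0, at 9.61, 9.58 and 9.52 against 9.70, 9.71 and 9.92, a difference of 0.20 (adjusted p = 0.192). Its siRND3 arrays were all above its siControl arrays.

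To ask whether the pattern held later, the single arrays at 48 h were tested by limma over the 4 groups together, which takes each of them to have the spread of the groups at 24 h. There 3 members were lower and 4 higher, where 12.3% and 13.2% of all genes were so called, and the median was -0.14 against 0.06. The sign was the same at both times for 26 of the 31 members, where it was for 75.1% of all genes, and the difference was larger in size at 48 h for 27, where it was for 76.5%. Over a 2-fold change were INSIG1 on the lower side, where 6.81% of all genes were, and PMVK and LSS on the higher side, where 4.62% were.

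At 48 h INSIG1 was 12.72 in siControl and 11.56 in siRND3 cells and so fell by 1.16 (SE 0.12, limma adjusted p = 0.00167). INSIG2 differed by -0.33 on probe A_33_P3321342 (adjusted p = 0.117) and by -2.28 on probe A_24_P944458 (8.30 against 6.02, adjusted p = 0.000405). Both directions were those at 24 h. EBP was 14.61 and 13.83 and fell by 0.78 (SE 0.12, limma adjusted p = 0.00600). SC5D was 4.58 and 3.89 and fell by 0.69 (adjusted p = 0.0438), and this call was lost under 8 of 14 alternatives, with a difference of -0.15 under normexp and adjusted p from 0.0256 to 0.385. It was lost without any of the 3 siControl arrays or siRND3 replicate 2 at 24 h, which set the spread (adjusted p 0.0690 to 0.0822). MSMO1 was 8.64 and 7.99, with a difference of -0.65 (95% interval -1.18 to -0.11) that did not pass (adjusted p = 0.0974). Of the 8 late sterol genes, 7 were below 0 at 48 h, where 44.5% of all genes were, with a median of -0.40 where all genes had 0.06. The exception was CYP51A1 at 0.10.

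The members called higher in siRND3 than in siControl cells at 48 h lay at the mevalonate and lanosterol steps and in SREBF1. For PMVK the siRND3 signal was nearly unchanged from its mean at 24 h (-0.03), while the siControl signal differed by -0.96. The MVK call and the LSS call on probe A_24_P110799 were lost with the replicate block. PMVK was 11.43 in siControl and 12.68 in siRND3 cells, higher by 1.25 (SE 0.14, limma adjusted p = 0.00201). MVK was 12.97 and 13.62, higher by 0.65 (adjusted p = 0.0197). LSS was 11.84 and 12.93 on probe A_24_P110799, higher by 1.09 (adjusted p = 0.0129), and 6.35 and 7.67 on probe A_23_P211252, higher by 1.32 (adjusted p = 0.00143). Of the 7 mevalonate and isoprenoid genes, 6 were above 0 at 48 h, where 8206 of the 14797 genes tested were, with a median of 0.34. SREBF1 was 13.74 and 14.52 on probe A_23_P129786, higher by 0.78 (SE 0.15, limma adjusted p = 0.0137), whereas its second probe A_33_P3222139, annotated to the same transcript, was 9.59 and 9.53, a difference of -0.06 (adjusted p = 0.864). With both SREBF1 probes averaged the difference was 0.36 and did not pass (adjusted p = 0.141). No fatty acid gene passed at 48 h, where the differences ran from -0.33 for FADS2 to 0.32 for FASN and none had an unadjusted p under 0.05. The second ACACA probe A_32_P215318 was 8.19 and 7.72, a difference of -0.47 (adjusted p = 0.0568) where the brighter probe gave -0.14.

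**Figure D3:**
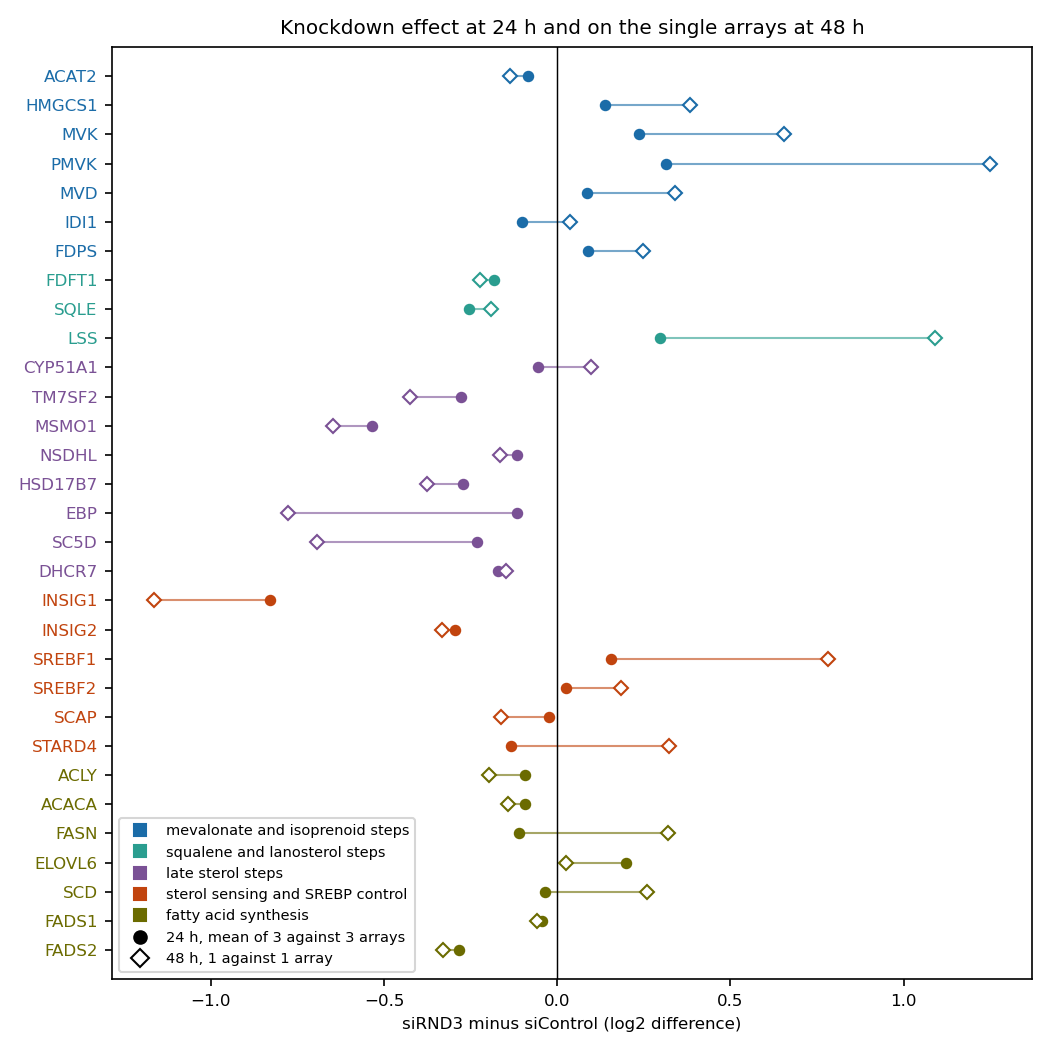
Difference between siRND3 and siControl cells for each of the 31 genes on the log2 scale (x axis) at 24 h (filled circles, 3 arrays against 3) and at 48 h (open diamonds, 1 array against 1), joined by a line and coloured by role. INSIG1, EBP and SC5D extend to the left and PMVK, LSS, SREBF1 and MVK to the right at 48 h, with PMVK reaching 1.25 and INSIG1 -1.16.

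Whether the knock-down effect differed between the times was tested as the difference of the differences. PMVK was the 1 member that passed, where 1.43% of all genes were called higher. Its effect was larger by 0.94 at 48 h (SE 0.16, limma adjusted p = 0.0400). Its siRND3 array at 48 h, at 12.68, lay within the siRND3 range at 24 h, and its siControl array at 48 h, at 11.43, lay 0.96 below the siControl mean at 24 h. The siControl array at 48 h was thus the one outside the earlier range of its group. The call was lost with the replicate block and without each of the 6 arrays at 24 h in turn (0.90 to 0.98, adjusted p 0.0537 to 0.103). No member was called lower, where 2.33% of all genes were. At an unadjusted p under 0.05 there were 7 members, PMVK, LSS, SREBF1, STARD4, FASN and MVK with larger values at 48 h and EBP with a lower one (-0.66, limma adjusted p = 0.0595), where 21.9% of all genes had such a p in either direction. The SREBF1 value was 0.63 on its brighter probe and -0.14 on probe A_33_P3222139 (adjusted p = 0.763). On the second LSS probe the effect was larger by 0.86 (adjusted p = 0.0445), and this call was lost under 9 of 13 alternatives. For INSIG1 the difference between the effects was -0.33, with a 95% interval of -0.67 to 0.00.

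Cells at 48 h were also compared with cells at 24 h within each treatment, on the same arrays as above. In siControl cells 23 of 31 members were above 0 at 48 h against 24 h, where 7170 of the 14797 genes tested were, with a median of 0.19 where all genes had -0.01. Of these, 2 passed as higher, where 1.13% of all genes did, STARD4 by 0.68 (limma adjusted p = 0.0359) and SREBF1 by 0.65 (adjusted p = 0.0427). The second SREBF1 probe A_33_P3222139 gave 0.38 and did not pass (adjusted p = 0.163). PMVK was the 1 member called lower, where 3.60% of all genes were, by -0.96 (adjusted p = 0.0158). These 3 calls were each lost without siControl replicate 1, 2 or 3 (adjusted p 0.0535 to 0.0605 for PMVK, 0.0988 to 0.106 for STARD4 and 0.0933 to 0.130 for SREBF1). STARD4 also lost its call without siRND3 replicate 3 (adjusted p = 0.0532), and SREBF1 without siRND3 replicate 2 or 3 (adjusted p = 0.0663 and 0.0564). MSMO1 had the largest difference upward of the 31 members, at 0.74, and neither it nor HMGCS1 at 0.54 passed (adjusted p = 0.0834 and 0.0933). ACACA was -0.14 on its brighter probe and 0.20 on the other, and neither passed. All 6 sterol sensing and SREBP control genes were above 0, with a median of 0.43.

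In siRND3 cells 25 of 31 members were above 0, where 7947 of the 14797 genes tested were, with a median of 0.20 where all genes had 0.03. There 8 passed as higher, where 3.22% of all genes did. SREBF1 rose by 1.27 (limma adjusted p = 0.00401), from 13.37, 13.22 and 13.17 at 24 h to 14.52 at 48 h, whereas its second probe gave 0.24 (adjusted p = 0.300). STARD4 rose by 1.13 (adjusted p = 0.00485), from 8.24, 8.05 and 8.24 to 9.31. On these probes both lay far above every siRND3 array at 24 h. HMGCS1 rose by 0.79, MVK by 0.58 and IDI1 by 0.48 among the mevalonate genes, FASN by 0.65 and SCD by 0.64 among the fatty acid genes, and SREBF2 by 0.59, with adjusted p of 0.0143 to 0.0438. EBP was the 1 member called lower, by -0.58 (adjusted p = 0.0170), where 8.24% of all genes were. INSIG2 was 0.15 on its brighter probe (adjusted p = 0.404) and fell by 0.54 on probe A_24_P944458 (adjusted p = 0.0369). HSD17B7 was 0.03, -0.07 and 0.13 on its 3 probes, of which none passed. INSIG1, which differed by 0.43 over time in siControl cells (adjusted p = 0.0744), differed by 0.10 in siRND3 cells (adjusted p = 0.589). The count of members called higher in siRND3 cells fell to 5 without siControl replicate 1, 2 or 3 or siRND3 replicate 3, and to 0 with the replicate block. IDI1 and SREBF2 lost their calls without any 1 of the 6 arrays at 24 h (adjusted p 0.0521 to 0.0937 and 0.0556 to 0.0850), MVK without any siControl array or siRND3 replicate 3 (adjusted p 0.0563 to 0.0637), and EBP without siControl replicate 3 (adjusted p = 0.0507). SREBF2 also lost its call without the filter on dim probes and with array weights, where the difference was 0.59 in both. Whether a member's change over time differed between siControl and siRND3 cells is the same test as that of the knock-down effect between times, and on the probe that stands for the gene PMVK alone passed it.

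**Figure D4:**
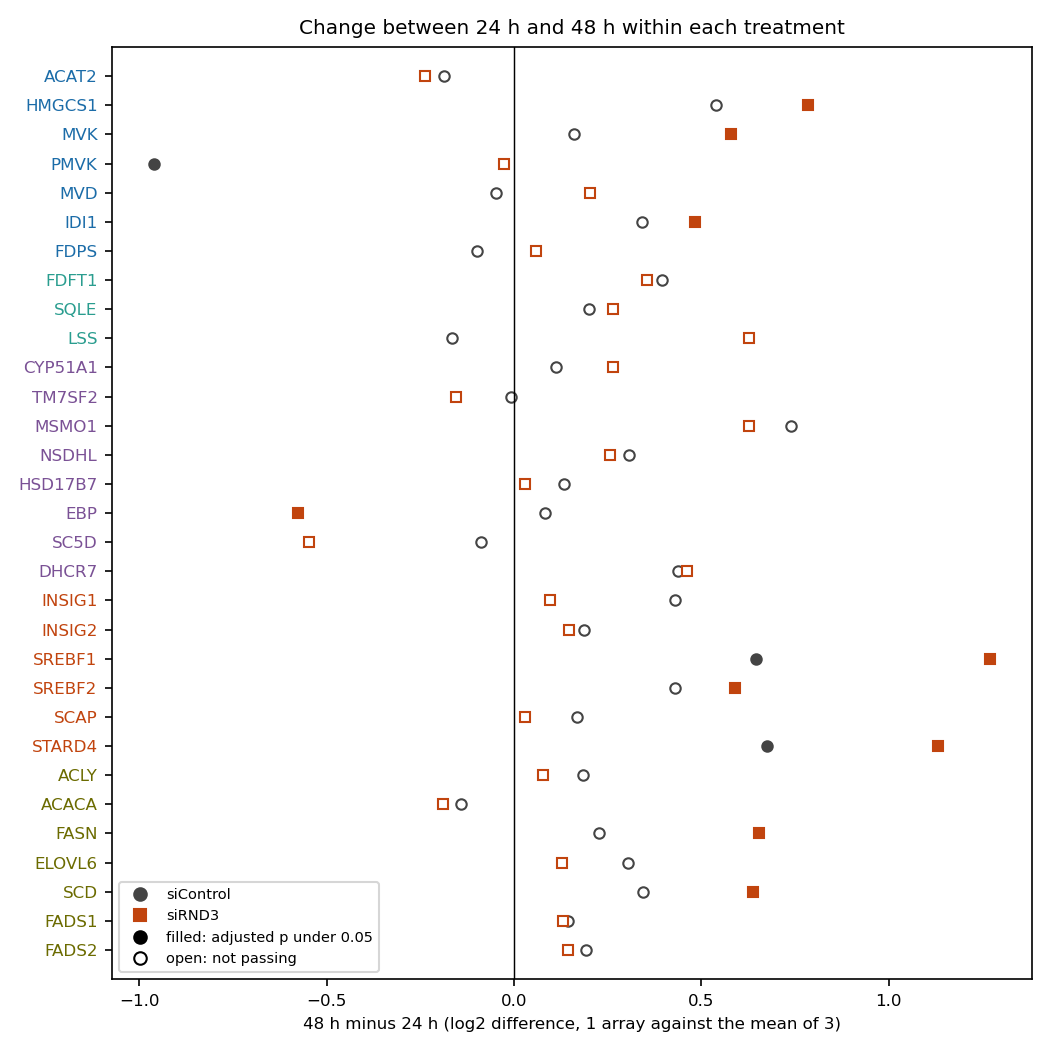
Change from 24 h to 48 h on the log2 scale (x axis, 1 array against the mean of 3) for each of the 31 genes in siControl (grey circles) and siRND3 (orange squares) cells, with gene names coloured by role as in the plots of the knock-down effect and symbols filled where limma gave an adjusted p under 0.05. Most symbols lie right of 0, with SREBF1 at 1.27 and STARD4 at 1.13 in siRND3 cells, and PMVK at -0.96 in siControl cells is the only filled symbol on the left beside EBP in siRND3 cells.

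A further 41 genes of sterol and lipid metabolism outside the 31 were examined, of which 40 were tested and ME1 was not well above background. At 24 h 5 were lower and 2 higher, where 8.31% and 6.71% of all genes were, and the median was 0.03. The genes of lipid uptake and lysosomal cholesterol held 2 of the 5, of 6 listed. LIPA, the lysosomal lipase that frees cholesterol from its esters, was 11.97, 11.85 and 11.85 in siControl cells and 11.23, 11.00 and 11.07 in siRND3 cells, and it fell by 0.79 (SE 0.09, limma adjusted p = 0.00336). Its siRND3 arrays were all well below the siControl arrays. NPC1, which exports cholesterol from the lysosome, fell by 0.56 (adjusted p = 0.0201). Of the precursor and fatty acid enzymes, ACSL3, an acyl-CoA synthetase of the endoplasmic reticulum, was 9.80, 9.68 and 9.69 against 8.86, 8.70 and 8.87 and fell by 0.91 (SE 0.08, adjusted p = 0.00152), and ACACB, the mitochondrial acetyl-CoA carboxylase, rose by 0.43 (adjusted p = 0.00963). OSBP, a sterol transfer protein, was 8.84, 8.70 and 8.77 against 7.53, 7.86 and 7.90 and fell by 1.01 (SE 0.12, adjusted p = 0.00405). For ACSL3 and OSBP, too, the groups stood apart on every array. RNF139, a sterol-sensing ubiquitin ligase, fell by 0.39 (adjusted p = 0.0398), and DHDDS, which makes dolichol precursors, rose by 0.31 (adjusted p = 0.0405). The other DHDDS probe (A_23_P201764) gave 0.03 (adjusted p = 0.888) and the mean of both 0.17 (adjusted p = 0.217), and the other ACACB probe (A_23_P87791) gave 0.25 (adjusted p = 0.147). LIPA, ACSL3 and OSBP passed under every alternative, while the other 4 calls depended on single arrays. Without siControl replicate 1 the adjusted p was 0.128 for RNF139, 0.0715 for NPC1, 0.110 for DHDDS and 0.0505 for ACACB, and without siControl replicate 3 it was 0.117, 0.0830, 0.128 and 0.0570. Among the other arrays the calls were also lost without siControl replicate 2 or siRND3 replicate 2 or 3 (RNF139), without siRND3 replicate 1 or 2 (NPC1) and without any of the others (DHDDS). None of the 6 genes of liver X receptors, export and esterification passed in limma, and 3 had an unadjusted p under 0.05. On the arrays at 48 h, 1 of each treatment, LIPA was 12.20 and 10.21 and fell by 2.00. ACSL3 was 9.82 and 8.31 and fell by 1.51, and both directions were those at 24 h. Of the other genes called at 24 h, OSBP differed by -0.95 at 48 h, NPC1 by -0.71, RNF139 by -0.32, DHDDS by 0.55 and ACACB by 0.55. On the other probes of DHDDS and ACACB the differences at 48 h were smaller, at 0.16 and 0.39. Of the 40 related genes tested, 20 were below 0 at 48 h.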

How the data were processed

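Total RNA from U87 cells was reverse transcribed, and labelled cRNA was hybridised to 8 human Agilent arrays with 1 colour (Cy3), 1 array per sample. Groups, times and replicate numbers came from the labels. The authors processed the scans with Agilent Feature Extraction 10.7.3.1. Linear spot intensity was deposited for each array, background-corrected within the array per the file headers and not scaled from array to array. A further table deposited by the authors holds log2 values, which their methods state to be quantile-normalised and which kept the rank order of the spot median on every array.

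The processed intensity was taken to log2 and quantile-normalised over the 8 arrays. Control spots (4259 of 62976) and outlier spots were left out and spots of a probe averaged. A probe was well above background when at least 50% of its spots were so marked, and a probe was tested (28762 probes) when either group at 24 h met this on its 3 arrays. The number of arrays limits the precision. Probes were named by RefSeq accession (60.0% matched). Tests used limma 3.58.1 in R 4.3.3 with p-values adjusted by Benjamini-Hochberg over every tested probe, at a threshold of 0.05, on the 6 arrays at 24 h or, for 48 h, time and the difference of effects, on 8 arrays in 4 groups. The test at 24 h was tried on simulated data with independent noise on every probe and array. The simulated shifts were larger than most differences reported here. Smaller differences were not simulated, and recovery on the single arrays at 48 h was not checked. Motifs and figures were made in Python 3.11.15.

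As alternatives, arrays were scaled to the 75th percentile, or the setting was normexp with an offset of 50 (on the spot median, since no spot mean was among the columns), the authors' log2 values, normalisation over the 24 h arrays, no filter and a stricter filter on dim probes, SAM, a replicate block, treatment and time fitted over all 8 arrays, array weights, probes averaged by gene, and each array at 24 h left out in turn. All 31 members are named. Of the 41 related genes, those that passed at 24 h are named, together with ME1, the untested one, and PDSS2, which passed in the test between times. Some items of the marker lists are not reported here. The members, lists and tests were chosen with earlier results of these data known.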

Additional observations from a re-analysis of the deposited data

Results flagged for a closer look

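Probes of PMVK, LSS, PDSS2 and the lipase LIPA had a knock-down effect that differed between 24 h and 48 h in limma. These tests rest on 1 array of each treatment at 48 h. The PMVK effect was larger by 0.94 at 48 h (adjusted p = 0.0400), with the siControl array at 48 h below its group at 24 h and the siRND3 array within its own. The second LSS probe (A_23_P211252) had an effect larger by 0.86 (adjusted p = 0.0445), with the siControl array at 6.35 against 6.68 to 6.86 at 24 h and the siRND3 array at 7.67 against 7.21 to 7.23. The effect on PDSS2, which makes the side chain of coenzyme Q, was larger by 0.90 on probe A_23_P134167 (adjusted p = 0.0385). Its siControl array stood at 7.69 at 48 h, below the mean of 8.93 at 24 h, and its other probe (A_33_P3214456) gave a difference of -0.07. For LIPA the difference of the 48 h and 24 h effects was -1.20 (adjusted p = 0.0309), with the siControl array at 12.20 against 11.85 to 11.97 and the siRND3 array at 10.21 against 11.00 to 11.23.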

How the results depend on the processing

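RND3 stayed between -1.74 and -1.60 and passed under all 17 alternatives. The members' median stayed below 0 at both times (-0.11 to -0.06 at 24 h, -0.14 to -0.09 at 48 h). Members called lower at 24 h, 3 as reported, numbered 1 without a filter and 5 with all 8 arrays in the fit. Members called higher at 24 h numbered 1 under 75th percentile scaling, the authors' values, the stricter filter, array weights and the mean of all probes, and 2 under normexp. On the difference between times, 1 member (EBP) was called lower under normexp, the authors' values and no filter, and 2 higher under normexp. For time in siControl cells the count higher was 4 under normexp and 1 under 75th percentile scaling, no filter and the mean of all probes. The causes were not tested.

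With 1 array left out, the range was 1 to 2 members lower and 0 to 0 higher at 24 h, 1387 to 2592 probes called (3389 with all arrays) and 3 to 6 related genes. It was 0 to 0 members higher on the difference between times, 0 to 1 lower and 0 to 2 higher for time in siControl cells, and 0 to 2 lower and 5 to 8 higher for time in siRND3 cells. Probes called were fewest, 1387, without siControl replicate 3, and were 1552 and 1685 without replicates 1 and 2.

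Arrays with the same replicate number did not deviate together (r of 0.00, -0.01 and 0.13), so the numbers were not taken to pair them. With the replicate block 1654 probes, 1 member lower and 3 related genes were called at 24 h, 2 members were called higher at 48 h, and 0 higher on the difference between times and 0 in either direction for time in siControl or siRND3 cells.

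Reversed directions were all of small differences that passed in no setting. Under 75th percentile scaling SCAP at 24 h was 0.0065 and FADS1 at 24 h 0.0019, and with all 8 arrays SCD at 24 h was 0.038. ELOVL6 at 48 h turned to -0.022 (normexp) and -0.030 (the authors' values). With 1 array left out the range was -0.022 to 0.091 for SREBF2 at 24 h, -0.080 to 0.018 for SCAP at 24 h, -0.18 to 0.010 for ACLY at 24 h and -0.095 to 0.044 for FADS1 at 24 h. For FDFT1 on the interaction of treatment and time it was -0.13 to 0.021, for SQLE on the interaction -0.079 to 0.14, for MSMO1 on the interaction -0.19 to 0.0091, for DHCR7 on the interaction -0.026 to 0.11, for FADS1 on the interaction -0.10 to 0.037 and for FADS2 on the interaction -0.088 to 0.0015.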
